A study of Homo sapiens with 10 samples.

Results

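The genes described are 9 components of the tight junction: the junctional adhesion molecules F11R (JAM-A), JAM2 (JAM-B) and JAM3 (JAM-C), the MARVEL-domain proteins occludin (OCLN) and tricellulin (MARVELD2), and the cytoplasmic scaffolds ZO-1 (TJP1), ZO-3 (TJP3), cingulin (CGN) and paracingulin (CGNL1). They were chosen by gene symbol, and each of the 9 matched 1 of the 58735 lines of the deposited count table. RNA was sequenced from HCMECs, recorded as a cell line of brain endothelial cells, in 10 libraries. A control siRNA (siCtrl) had been transfected in 5 of them and an siRNA against USP9X, a deubiquitinase, in the other 5 (siUSP9X). Transfection lasted 48 h, and both groups then received Wnt3a, a Wnt ligand, for 12 h, so no group without Wnt3a was analysed here. Nothing in the labels tells separate cultures from repeat preparations of 1 culture, and p-values then cover only how much the libraries varied, possibly for technical reasons.

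Tight junctions seal the gap between neighbouring cells and limit leakage between them, and in brain vessels they are a main part of the blood-brain barrier. JAM proteins are immunoglobulin-like adhesion molecules that bind one another across the gap, while occludin and tricellulin cross the membrane several times, tricellulin mainly where 3 cells meet. ZO and cingulin proteins lie beneath the membrane, where ZO proteins use PDZ domains to hold the tails of membrane proteins and link them to actin.

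The JAM proteins end in a short tail that PDZ domains of ZO-1 and of the polarity protein PAR3 bind. The last 60 coding bases of the principal transcript of each JAM gene (GENCODE release 29, GRCh38, 5′ to 3′) are shown because they encode this shared tail in genes that did not move together. Capitals mark the last 3 codons and the stop codon.
F11R: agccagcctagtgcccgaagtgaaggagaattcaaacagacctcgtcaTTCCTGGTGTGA
JAM2: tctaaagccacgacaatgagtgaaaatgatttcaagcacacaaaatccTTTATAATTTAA
JAM3: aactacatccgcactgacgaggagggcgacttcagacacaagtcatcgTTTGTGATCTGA
Without gaps, F11R shared 29 of these 60 bases with JAM2 and 31 with JAM3, and JAM2 shared 27 with JAM3. In the last 3 codons, JAM2 and JAM3 shared 6 of 9 bases, F11R and JAM3 5, and F11R and JAM2 4.

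Library totals ran from 15958362 to 26467787 counts. USP9X mRNA was at 283 to 416 CPM (counts scaled to a common library size with TMM factors) in siCtrl and 20.7 to 68.8 CPM in siUSP9X. It was 9.68-fold lower by the edgeR fit used below. In siUSP9X replicate 2, ribosomal protein genes took 1.96% of counts against 4.10 to 5.84% in the other 9 libraries, and the mitochondrial rRNA gene MT-RNR2 took 1.40% against 0.380 to 0.573%. That library also had the most USP9X mRNA of its group, 68.8 CPM against 20.7 to 36.5 CPM in the other 4, and results are also given without it. The summed level of 12 endothelial markers was 319 to 392 CPM in siCtrl and 158 to 364 CPM in siUSP9X. The 158 CPM came from siUSP9X replicate 2, where ESAM was 67.2, PROCR 48.1, ENG 39.3 and EGFL7 2.10 CPM. With that library set aside, siUSP9X had ESAM at 145 to 171 and PROCR at 96.4 to 109.6 CPM. Both were above their siCtrl minima, 137 and 82.6 CPM. ENG at 58.7 to 70.2 CPM stayed below siCtrl, and EGFL7 at 14.1 to 20.9 CPM overlapped it. Of the 12 markers, 5 were high enough to test. In the same fit 0 of the 5 were called, against 4.09% of all tested genes called higher and 3.22% lower. ENG was lower in every siUSP9X library than in any siCtrl library (log2 fold change -0.51, edgeR adjusted p = 0.0561). The groups overlapped for ESAM, PROCR, EGFL7 and CDH5. ESAM led at a siCtrl mean of 161 CPM, followed by PROCR at 90.3, ENG at 84.1 and EGFL7 at 27.5 CPM. By contrast ERG was at 0 in all libraries, and PECAM1, KDR, VWF, TEK, TIE1 and CLDN5 did not exceed 0.341 CPM and CDH5 did not exceed 1.12 CPM in any library. The summed level of 11 epithelial markers, nearly all of it KRT8 and KRT18, was 3344 to 4210 CPM in siCtrl and 2052 to 2796 CPM in siUSP9X. Among these markers ELF3 was at 20.4 to 30.6 CPM in siCtrl and 14.95 to 35.4 CPM in siUSP9X. ESRP1 was at 5.15 to 6.52 CPM in siCtrl and 2.17 to 5.43 CPM in siUSP9X. EPCAM stayed at or below 1.17 CPM, ESRP2 at or below 0.756 CPM, CDH1 at or below 0.528 CPM and KRT19 at or below 0.166 CPM. KRT5, KRT14 and GRHL2 were at 0.

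Among the 9 genes, JAM2 rose and F11R fell, CGNL1 was too low to test, and the other 6 missed the threshold (edgeR quasi-likelihood test, adjusted p under 0.05 over all 13934 tested genes). The background over all tested genes was 4.09% called higher and 3.22% called lower. The groups were apart for the same pair of genes, JAM2 upward and F11R downward, and for 7.79% of all tested genes upward and 6.85% downward. The median log2 fold change of the 8 tested members was 0.03, the same as the median of all tested genes, 0.03. In RNA from whole cultures, fewer cells with a transcript and less of it per cell cannot be told apart.

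**Figure D1:**
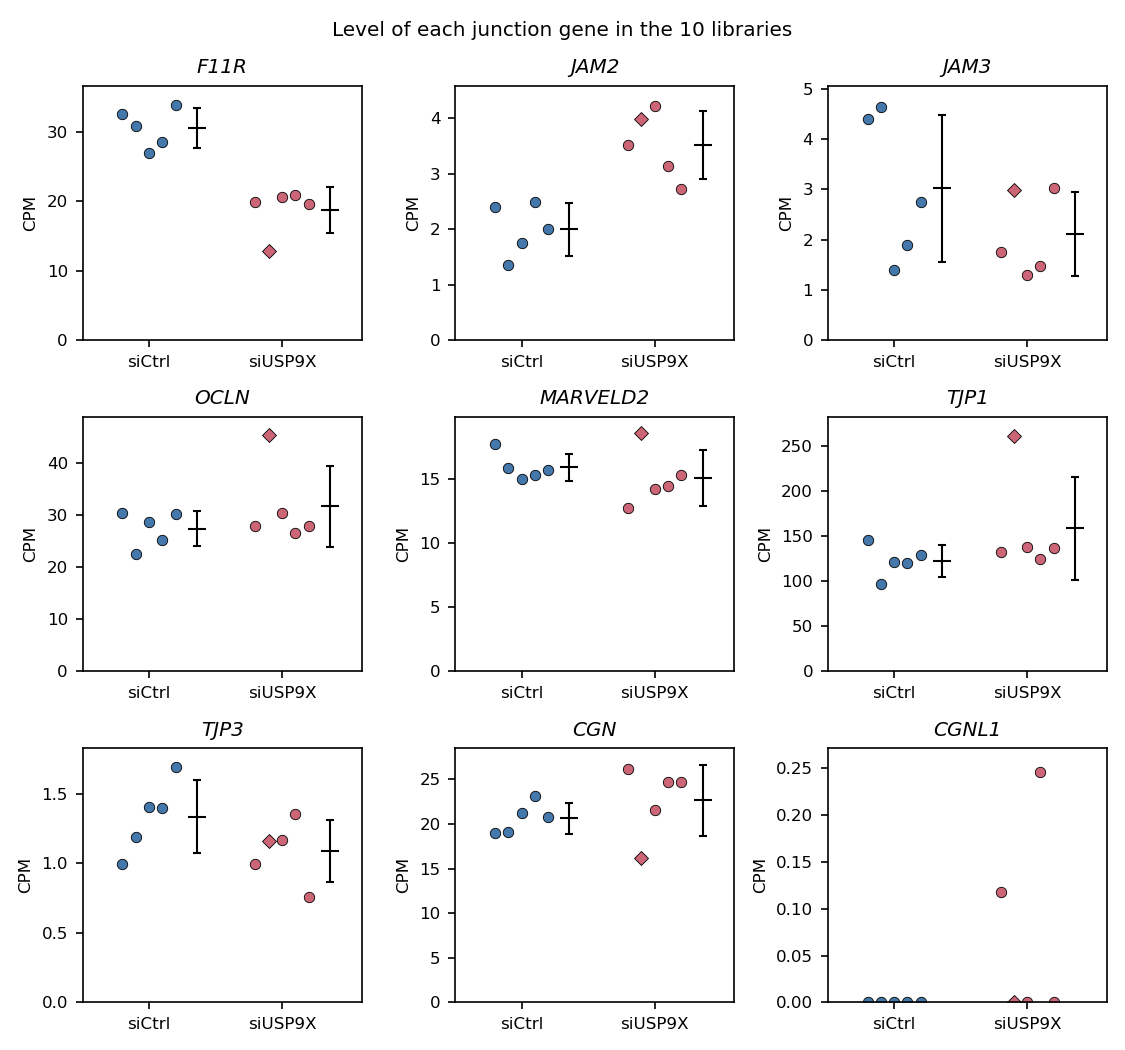
Level of each gene in CPM (vertical axes, linear from 0) in the 5 siCtrl and 5 siUSP9X libraries; points are libraries in the order of replicate number, the diamond is siUSP9X replicate 2, and bars are mean and SD (not drawn for CGNL1). The groups are apart for F11R and JAM2 and overlap for the other genes, and TJP1 and OCLN are highest in siUSP9X replicate 2.

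F11R encodes JAM-A, which joins cells by binding itself and signals through the GTPase Rap1 (ENSG00000158769.17, chromosome 1, 160995211 to 161021348, minus strand). Its level was 32.6, 30.9, 26.9, 28.6 and 33.8 CPM in siCtrl replicates 1 to 5, and 19.9, 12.9, 20.6, 20.9 and 19.7 CPM in siUSP9X replicates 1 to 5. All siUSP9X libraries lay below all siCtrl libraries, with replicate 2 the lowest and the other 4 close together at 20.3 ± 0.564 CPM (SD, n = 4). The means were 30.6 ± 2.83 and 18.8 ± 3.34 CPM (SD, n = 5 each), a 1.63-fold decrease (log2 fold change -0.70 ± 0.14, SE, edgeR adjusted p = 0.0153). Without siUSP9X replicate 2 the log2 fold change was -0.59 with an adjusted p of 0.000197 (edgeR). The call was lost without siCtrl replicate 5 (edgeR adjusted p = 0.0504). Of 5 tested epithelial markers, 2 were called lower (edgeR), against 3.22% of all tested genes. These were KRT8 and KRT18, with log2 fold changes of -0.45 and -0.74. EPCAM at -1.37, ESRP1 at -0.80 and ELF3 at 0.07 missed the threshold. The part of these markers in the change of F11R was not tested.

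JAM2 encodes JAM-B, an adhesion molecule of endothelium that binds itself and JAM-C (ENSG00000154721.14, chromosome 21, 25639272 to 25717562, plus strand). It was low, at 2.41, 1.35, 1.75, 2.50 and 2.02 CPM in siCtrl replicates 1 to 5, or 25 to 66 counts per library. In siUSP9X replicates 1 to 5 it was 3.53, 3.99, 4.22, 3.14 and 2.73 CPM, or 47 to 72 counts. All siUSP9X libraries lay above all siCtrl libraries, though the highest siCtrl library and the lowest siUSP9X library were close. The means were 2.003 ± 0.474 and 3.52 ± 0.607 CPM (SD, n = 5 each), a 1.75-fold increase (log2 fold change 0.81 ± 0.21, SE, edgeR adjusted p = 0.0381). Unlike F11R, siUSP9X replicate 2 was no extreme here, and without it the log2 fold change was 0.75 (edgeR adjusted p = 0.0163). In fits that left out 1 library each, JAM2 passed the threshold in 3 of 10, those without siCtrl replicate 1, siUSP9X replicate 2 or siUSP9X replicate 5. Leaving out siCtrl replicates 2 to 5 or siUSP9X replicates 1, 3 or 4 ended the call, and adjusted p reached 0.103 (edgeR).

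The 3′ end of JAM2 overlaps that of ATP5PF, a mitochondrial ATP synthase subunit gene on the opposite strand, over 1060 bases. The libraries were made with a stranded kit, but no source used here says whether strand was used in counting. The mean of ATP5PF was 57.7 ± 5.80 CPM in siCtrl against 41.1 ± 16.1 CPM in siUSP9X (SD, n = 5 each). Its groups overlapped and it did not pass the threshold (edgeR adjusted p = 0.264), with 14.0 CPM in siUSP9X replicate 2 and 41.7 to 56.6 CPM in the other 4. Its part in the counts of JAM2 was not tested. F11R shares 23392 bases of its span with AL591806.3 on the same strand, which had 11 counts over the 10 libraries together.

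JAM3 encodes JAM-C, the partner of JAM-B (ENSG00000166086.12, chromosome 11, 134068925 to 134152001, plus strand). It was 4.39, 4.65, 1.41, 1.89 and 2.76 CPM in siCtrl replicates 1 to 5 and 1.76, 2.99, 1.29, 1.48 and 3.02 CPM in siUSP9X replicates 1 to 5. The groups overlapped, and the siCtrl libraries themselves spanned a 3.30-fold range, the widest of the 8 tested members. Its counts scattered more than counting error alone gives, with a chi-square per degree of freedom of 14.0 within siCtrl and 5.67 within siUSP9X (about 1 for counting error). These values were not computed for the other members. Over all tested genes together, the closest replicate pair had 5.27 per degree of freedom, so scatter beyond counting error was not particular to JAM3. The log2 fold change was -0.51 with a 95% interval from -1.32 to 0.30 (edgeR adjusted p = 0.368), so neither a decrease of more than 2-fold nor a small increase was outside the interval. JAM3 overlaps NCAPD3, a condensin subunit gene on the opposite strand, over 1883 bases at its 3′ end. NCAPD3 averaged 173 ± 11.6 CPM in siCtrl against 171 ± 35.4 CPM in siUSP9X (SD, n = 5 each).

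With F11R lower and JAM2 higher, the ratio between these related genes was lower in every siUSP9X library than in any siCtrl library. The groups were already apart for each gene, in opposite directions, so this follows from the 2 genes and adds no further evidence. There were 11.5 to 22.9 F11R counts for each JAM2 count in the siCtrl libraries and 3.24 to 7.21 in the siUSP9X libraries, with no overlap. The mean log2 ratio was 3.96 ± 0.37 in siCtrl and 2.41 ± 0.46 in siUSP9X (SD, n = 5 each), a difference of -1.55, which ranged from -1.66 to -1.37 when 1 library was left out. The ratio of F11R to JAM3 overlapped between groups, with mean log2 ratios of 3.48 ± 0.66 and 3.23 ± 0.80 (SD, n = 5 each). JAM2 to JAM3 overlapped as well, at -0.48 ± 0.90 and 0.81 ± 0.71. These ratios are descriptions and were not tested.

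**Figure D2:**
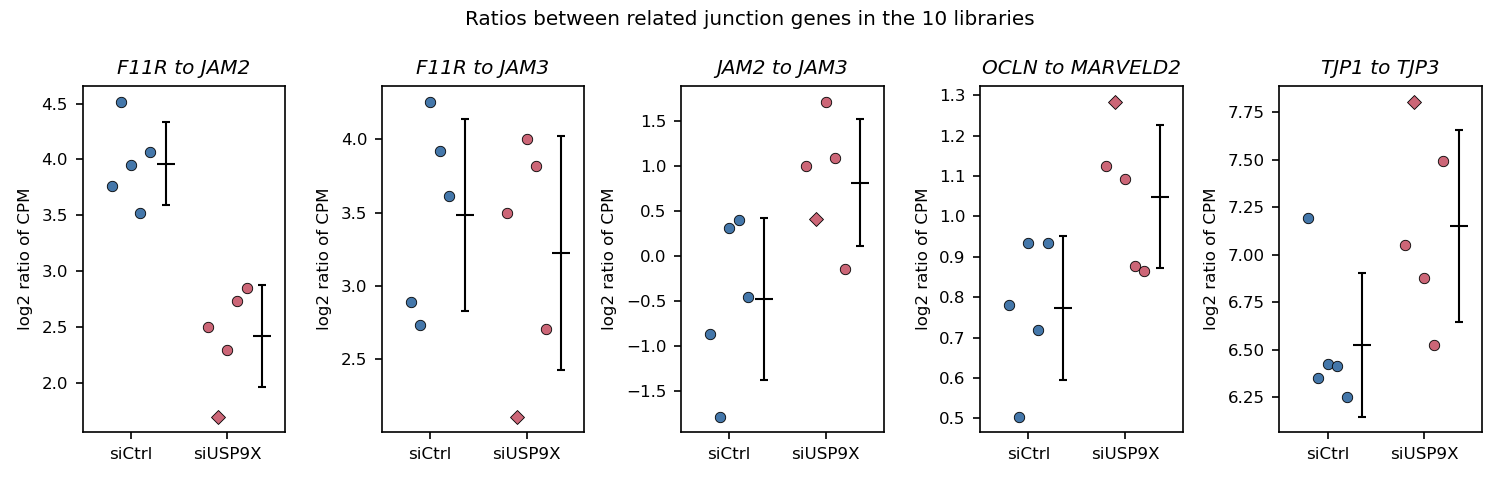
Log2 ratio of CPM between pairs of related genes (vertical axes) in the siCtrl and siUSP9X libraries; points are libraries, the diamond is siUSP9X replicate 2, and bars are mean and SD of 5. F11R to JAM2 falls from between 3.52 and 4.52 in siCtrl to between 1.69 and 2.85 in siUSP9X, and the other 4 ratios overlap between groups.

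Occludin is regulated by phosphorylation and its cytoplasmic tail binds ZO-1 (OCLN, ENSG00000197822.10, chromosome 5, 69492292 to 69558104, plus strand). OCLN mRNA was 30.4, 22.5, 28.6, 25.2 and 30.1 CPM in siCtrl replicates 1 to 5 and 27.8, 45.3, 30.4, 26.6 and 27.96 CPM in siUSP9X replicates 1 to 5. Apart from siUSP9X replicate 2, which was 1.61-fold above the mean of the other 4, the siUSP9X libraries lay inside the siCtrl range. The log2 fold change was 0.21 (95% interval -0.15 to 0.56, edgeR adjusted p = 0.399), and 0.04 (-0.17 to 0.26) without that library. A pseudogene, OCLNP1, matches OCLN transcripts over all of its 679 bases at 99.7% identity, so reads from that stretch may have been split between both. OCLNP1 had 2 to 22 counts per library, and adding them to OCLN gave a log2 fold change of 0.22.

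Tricellulin seals the corners where cells meet, and its gene is close to that of occludin on chromosome 5 (MARVELD2, ENSG00000152939.15, 69415065 to 69444330, plus strand). MARVELD2 was 17.7, 15.9, 14.98, 15.3 and 15.8 CPM in siCtrl replicates 1 to 5 and 12.8, 18.6, 14.2, 14.5 and 15.3 CPM in siUSP9X replicates 1 to 5. It varied least among the tested members in siCtrl, with the highest library 1.18 times the lowest, and the groups overlapped. Its log2 fold change was -0.08 (95% interval -0.34 to 0.18, edgeR adjusted p = 0.676), an interval that does not reach a 1.5-fold change in either direction. There were 1.42 to 1.91 OCLN counts for each MARVELD2 count in siCtrl and 1.82 to 2.43 in siUSP9X, which overlap.

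ZO-1 is the scaffold that JAM-A, occludin and claudins bind (TJP1, ENSG00000104067.16, chromosome 15, 29699367 to 29968865, minus strand), and its mRNA was the most abundant of the 9. TJP1 was 145, 96.9, 121, 119.6 and 129 CPM in siCtrl replicates 1 to 5 and 132.5, 260.1, 138, 125 and 136 CPM in siUSP9X replicates 1 to 5. One library, siUSP9X replicate 2, stood at 1.96 times the mean of the other 4 siUSP9X libraries, which were 133 ± 5.80 CPM (SD, n = 4) and lay within the siCtrl range. With all libraries the log2 fold change was 0.37 (95% interval -0.08 to 0.82, edgeR adjusted p = 0.2502), and without that library it was 0.12 (-0.08 to 0.32).

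ZO-3, which is found mainly in epithelia, was barely expressed (TJP3, ENSG00000105289.14, chromosome 19, 3708109 to 3750813, plus strand). TJP3 had 19 to 37 counts per library in siCtrl and 13 to 22 in siUSP9X, or 1.34 ± 0.264 and 1.09 ± 0.225 CPM (SD, n = 5 each), with overlapping groups. Its log2 fold change was -0.30 (95% interval -0.80 to 0.21, edgeR adjusted p = 0.401).

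Cingulin binds ZO-1 and the RhoA activator GEF-H1 (CGN, ENSG00000143375.14, chromosome 1, 151510510 to 151538692, plus strand). CGN was 19.0, 19.1, 21.2, 23.1 and 20.7 CPM in siCtrl replicates 1 to 5 and 26.2, 16.2, 21.5, 24.7 and 24.6 CPM in siUSP9X replicates 1 to 5. Here siUSP9X replicate 2 was the lowest of all libraries, opposite to its place for OCLN and TJP1, and the groups overlapped. The log2 fold change was 0.14 (95% interval -0.16 to 0.43, edgeR adjusted p = 0.517), and 0.23 (0.03 to 0.43, edgeR adjusted p = 0.0828) without that library.

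Its paralog paracingulin was near 0 (CGNL1, ENSG00000128849.10, chromosome 15, 57375967 to 57550727, plus strand). CGNL1 had 0 counts in all 5 siCtrl libraries, with an exact 95% Poisson interval up to 0.0366 CPM for the pooled group. It had 6 counts in siUSP9X, 2 in replicate 1 and 4 in replicate 4. The pooled siUSP9X level was 0.0701 CPM (exact 95% Poisson interval 0.0257 to 0.153, counting error only). Of the 2 cingulin genes, the transcripts in these cells were almost all from CGN.

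**Figure D3:**
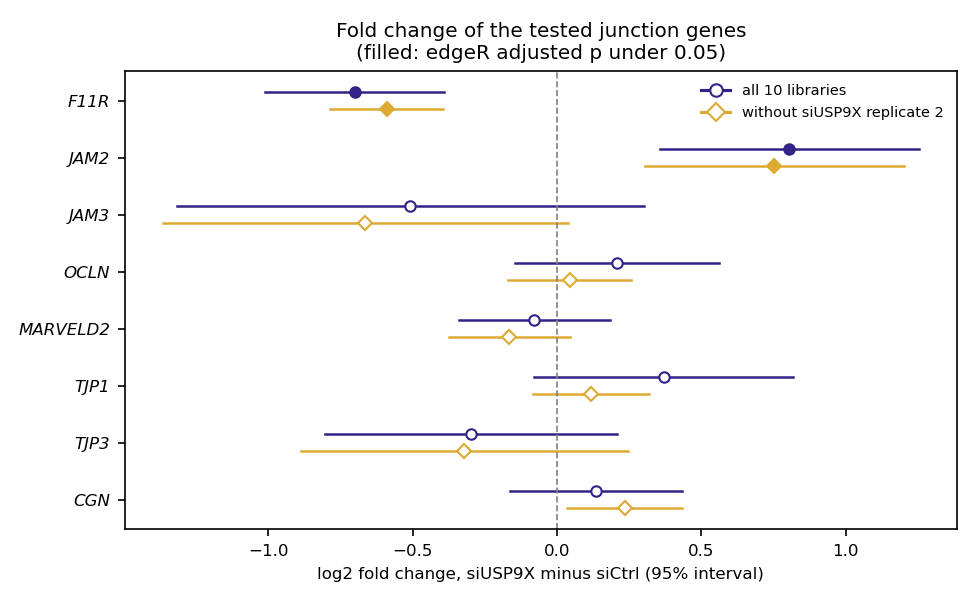
Log2 fold change of the 8 tested genes, siUSP9X minus siCtrl (horizontal axis), with 95% intervals, for all 10 libraries (circles) and without siUSP9X replicate 2 (diamonds); filled symbols passed an edgeR adjusted p of 0.05. F11R at -0.70 and JAM2 at 0.81 are filled in both fits, and TJP1 moves from 0.37 to 0.12 without that library.

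Per kilobase of merged exons, the siCtrl levels fell into a higher set of 5 genes and a lower set of 4. TJP1 led with 10.9 ± 1.56 CPM per kb (SD, n = 5), followed by F11R at 6.04 ± 0.559, OCLN at 4.05 ± 0.505, CGN at 3.12 ± 0.257 and MARVELD2 at 2.97 ± 0.198 CPM per kb. TJP1, F11R and OCLN did not overlap one another across siCtrl libraries, whereas OCLN with CGN, and CGN with MARVELD2, did. JAM3, JAM2 and TJP3 followed at 0.554 ± 0.267, 0.338 ± 0.0800 and 0.317 ± 0.0626 CPM per kb with overlapping ranges, and CGNL1 was at 0. So F11R was the main JAM transcript of these cells, and JAM2, the one that rose, remained below every siUSP9X value of F11R, with at most 0.711 CPM per kb against at least 2.55 CPM per kb.

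In siUSP9X the order changed in 2 places. F11R, at 3.71 ± 0.660 CPM per kb, came below OCLN at 4.68 ± 1.15, and JAM2, at 0.594 ± 0.102, came above JAM3 at 0.387 ± 0.153 (SD, n = 5 each). In both pairs the siUSP9X ranges overlapped, so neither new order exceeded the spread over libraries. Merged exons count every annotated exon, and the isoforms in use were not given by the table, so these levels are approximate.

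**Figure D4:**
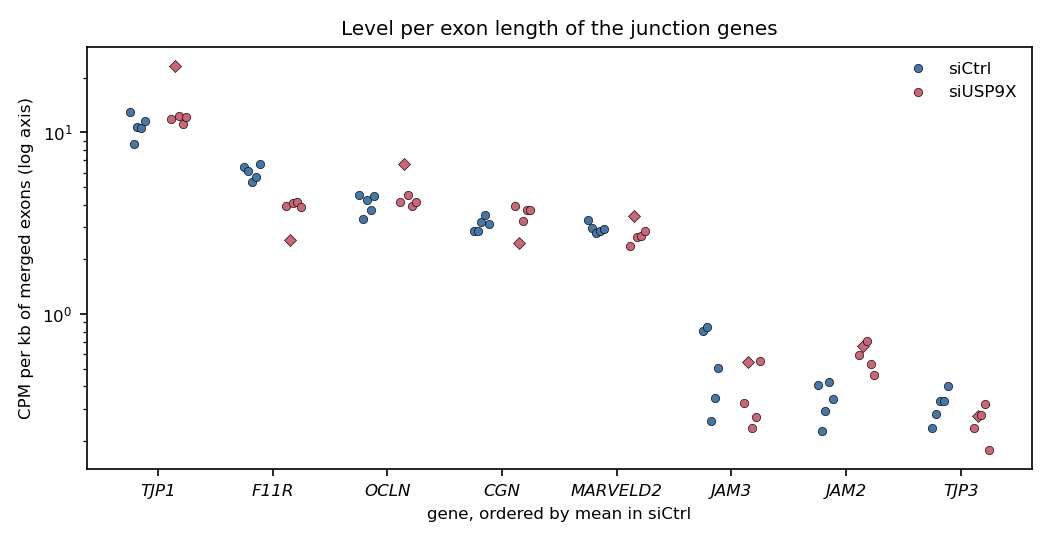
Level in CPM per kb of merged exons (vertical log axis) of 8 genes ordered by their siCtrl mean, with siCtrl and siUSP9X libraries as points and siUSP9X replicate 2 as a diamond; CGNL1, at 0 in siCtrl, is not drawn. A gap separates MARVELD2, whose lowest siUSP9X value is 2.38, from JAM3, JAM2 and TJP3, none above 0.852.

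Partner genes of these proteins were read from the same fit. Of 36 genes for JAM relatives, tricellular proteins, PDZ scaffolds, polarity complexes and signalling partners, 30 were tested, and 1 of them fell, 0 rose and the other 29 missed the threshold (edgeR). DESeq2 called 4 of the 30 higher and 3 lower, where it called 9.07% and 7.74% of all tested genes. With limma-voom 0 were higher and 1 lower, against 3.67% and 3.32% of all genes. At an unadjusted p under 0.05 (edgeR) 7 were higher and 5 lower, against 15.9% and 11.9% of all genes. Over all 10 libraries their median log2 fold change was 0.18 against 0.03 for all tested genes. That median includes siUSP9X replicate 2 and was not taken without it. The gene that fell was RAP1A, a Rap1 GTPase in the pathway by which JAM-A acts on integrins. RAP1A was 57.5, 58.2, 55.7, 46.2 and 50.2 CPM in siCtrl and 37.5, 42.5, 41.6, 34.9 and 38.9 CPM in siUSP9X replicates 1 to 5. All siUSP9X libraries lay below all siCtrl libraries (log2 fold change -0.45 ± 0.10, SE, edgeR adjusted p = 0.0255). RAP1A too passed in 3 of 10 such fits, those without siCtrl replicate 4, siUSP9X replicate 2 or siUSP9X replicate 3. Each of the other 7 omissions ended the call, and adjusted p reached 0.0784 (edgeR).

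The best measured partners that did not pass the threshold covered each role but the tricellular one. RAP1B, the near relative of RAP1A, had a log2 fold change of 0.05 (95% interval -0.18 to 0.29), and RHOA, the GTPase that drives junctional actomyosin, -0.06 (-0.24 to 0.12). PARD3, which encodes PAR3, had 0.33 (0.03 to 0.64, edgeR adjusted p = 0.148). AFDN, the actin-binding scaffold afadin, had 0.36 (-0.04 to 0.75), and ESAM, an endothelial relative of the JAMs that is also on the endothelial marker list, -0.18 (-0.65 to 0.30). YBX3, the transcription factor that binds ZO-1, had 0.23 (0.05 to 0.42, edgeR adjusted p = 0.105). In the fit without siUSP9X replicate 2, PARD3 had 0.18, AFDN 0.16 and ESAM 0.004. RAP1B had -0.004, RHOA -0.03 and YBX3 0.27 in that fit.

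Without siUSP9X replicate 2, 6 of the 30 partners were higher and 4 lower, where 11.9% and 11.5% of all tested genes were called. Most of these are named here after their values were seen. The higher ones were USP53, a tight junction protein that binds ZO-1, RAPGEF2, a Rap1 activator, the PDZ scaffold MPDZ, the polarity kinase PRKCI, YBX3 and MARVELD1. The lower ones were the tricellular receptor LSR, the scaffold PATJ, the polarity gene PARD6A and RAP1A. USP53 had a log2 fold change of 0.63 without that library and 1.10 with it, and reached 118 CPM in siUSP9X replicate 2 and 35.2 to 45.1 CPM in siUSP9X replicates 1 and 3 to 5. LSR, which recruits tricellulin to cell corners, went from 112 ± 19.0 to 63.3 ± 19.9 CPM (SD, n = 5 each). The LSR groups overlapped, with 28.6 CPM in siUSP9X replicate 2. Its log2 fold change was -0.83 over all libraries (edgeR adjusted p = 0.0588) and -0.64 without siUSP9X replicate 2 (edgeR adjusted p = 0.000492).

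**Figure D5:**
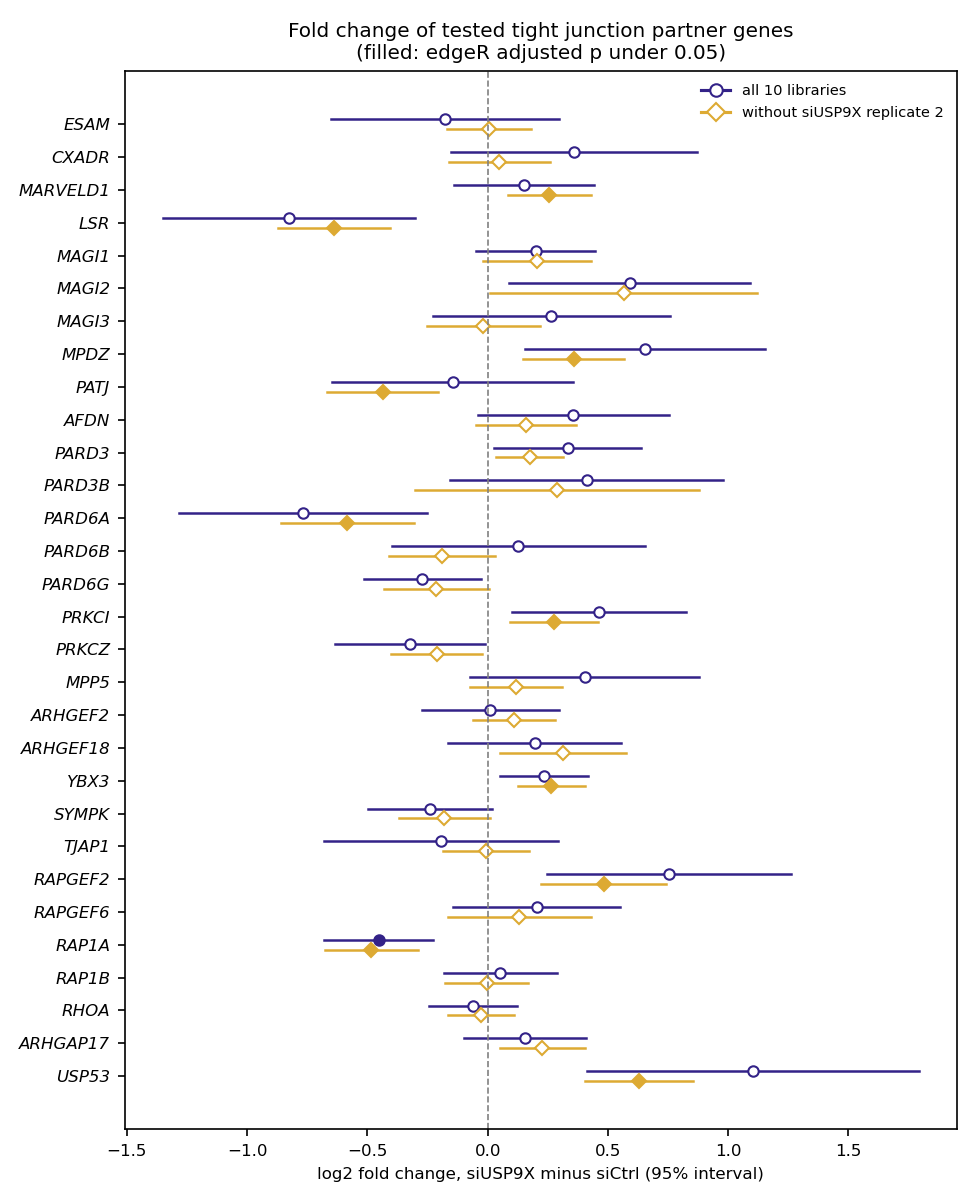
Log2 fold change of the 30 tested partner genes, siUSP9X minus siCtrl (horizontal axis), with 95% intervals, for all 10 libraries (circles) and without siUSP9X replicate 2 (diamonds); filled symbols passed an edgeR adjusted p of 0.05, and MPP5 is the table's symbol for PALS1. RAP1A is the 1 filled circle, and 10 diamonds are filled.

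The tested members did not share 1 pattern over the 10 libraries. OCLN and TJP1 were the most alike, with a Pearson r of 0.97 between their log2(CPM + 1) values, also 0.97 after group means were removed. MARVELD2 and CGN ran opposite to each other (r = -0.86, and -0.85 with group means removed), and F11R and JAM2 had r = -0.78, or -0.18 once group means were removed. The points share libraries, and siUSP9X replicate 2 holds the highest OCLN, MARVELD2 and TJP1 and the lowest F11R and CGN values. Among 10561 genes of at least 5 CPM, genes most like F11R included CBX1 and PLAU (r = 0.98 and 0.97), and those most like JAM2 were PAX9, LUCAT1 and ARNT2 (0.95, 0.95 and 0.94). EFR3A, ZNF217 and CTTNBP2NL were nearest to TJP1 (0.998, 0.997 and 0.996), and MFAP3L, CSNK1G1 and HSPA4L to OCLN (all 0.98). MARVELD2 was most like TENT4B, MTAP and SEH1L (all 0.94), and CGN most like CCNJL, CRY2 and BAHD1 (0.95, 0.94 and 0.94). The nearest genes of the low members were less alike, TUBGCP3, RNF182 and ZNF101 for JAM3 (all 0.84) and MAP3K8, PPP1R13B and WASHC1 for TJP3 (0.86, 0.84 and 0.83).

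Annotated 3′ UTRs of the members were searched on the sense strand for 4 words that an earlier analysis picked from these same fold changes as common among lower genes. One pair of words was AATCACA with its neighbour by a shift of 1 base, ATCACAA. The other pair was AACTCTA with its neighbour by the same shift, CAACTCT. At least 1 word was found in 33.7% of 11934 tested genes with a 3′ UTR, and in 1 of the 8 tested members. F11R and JAM2, which changed, held none. The match was ATCACAA in OCLN, which did not pass the threshold, and it is shown with its flanks and the word in capitals.
OCLN: cctctgtgagcATCACAAagttttggttg
It starts at base 109 of that 3′ UTR. ATCACAA alone was in 13.5% of the 3′ UTRs searched, so a match is a description of the sequence.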

How the data were processed

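The authors deposited whole-number counts per gene symbol, 1 column per library, not normalized. Per the submitters' processing notes, hg38, RSEM and DESeq2 were used, with no version, role or order; the aligner and annotation are not given in the sources used here. Should the counts be rounded RSEM estimates, reads shared by near-identical genes would have been split before deposit. TRIzol extraction and a stranded mRNA kit were used, per the labels' protocols.

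Samples were grouped by title. The whole table was tested with the edgeR quasi-likelihood test (edgeR 4.0.16, R 4.3.3; TMM, filterByExpr with a minimum count of 10, group as the only term), two-sided, Benjamini-Hochberg adjusted over 13934 genes, threshold 0.05. Intervals of fold changes come from the same fit. Likeness used log2(CPM + 1). No library repeated another, since the closest replicate pair had a chi-square of 5.27 per degree of freedom. Positions and exon lengths come from GENCODE release 29. The test was checked on simulated data. Alternatives used DESeq2 1.42.0, limma-voom (limma 3.58.1), other scalings and filters, a replicate block, and each library left out; summing OCLN and OCLNP1 was added after the data were seen. The members and lists were chosen with earlier results of these data known. All 9 members are named, and of the partners those past the threshold in the main fit and the 6 best measured others. The partners past the threshold without siUSP9X replicate 2 are named too, a choice made after the data were seen. For each tested member, the 3 genes with the highest correlation were named, except 1 that is not reported here. Of the other marker lists, pericyte and smooth muscle markers summed to at most 6.58 CPM, fibroblast to 2.77, leukocyte to 0.216 and neural and glial (nearly all MBP) to 109 CPM in any library.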

Additional observations from a re-analysis of the deposited data

Results flagged for a closer look

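In 3 of 19 groups of 5 values examined, 1 library lay far from the other 4, by a gap test that flags about 5% of such groups by chance. All were siUSP9X replicate 2. F11R was lowest there, at 12.9 CPM against 19.7 CPM in the nearest siUSP9X library. OCLN was highest there, at 45.3 CPM against 30.4 CPM, and TJP1 was highest, at 260.1 CPM against 138 CPM. The part of that library's lower share of ribosomal protein counts, higher share of MT-RNR2 counts and higher USP9X level in these values was not tested.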

How the results depend on the processing

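Across the tested members no alternative turned a direction. USP9X kept its call in all 17 alternatives, F11R in 15 of 17 and JAM2 in 7 of 16, and the 6 members that did not pass the threshold passed it in none. Over all genes, 570 were higher and 449 lower, against 1264 and 1078 with DESeq2, 34 and 57 with the replicate block, and 170 to 1674 and 189 to 1620 when 1 library was left out, the highest without siUSP9X replicate 2. Members called higher went from 1 to 0 without a filter, to 0 with at least 5 CPM in 5 libraries (where JAM2, JAM3 and TJP3 were not tested), to 0 with the replicate block and to 0 to 1 with 1 library left out. Members called lower went from 1 to 0 with the block and 0 to 1 with 1 library left out. Partners called higher went from 0 to 1 with library totals, 4 with DESeq2 and 0 to 6 with 1 library left out, and partners called lower from 1 to 0 without a filter or with the block, 3 with DESeq2 and 0 to 4 with 1 library left out. The cause was not tested. The block ended the calls of F11R (adjusted p = 0.111, edgeR) and JAM2 (0.1825). No batch shared by the replicate numbers is stated. Deviations of same-numbered libraries correlated at -0.66 to 0.43, and 1 of 10 libraries correlated best with its own number. These correlations include siUSP9X replicate 2, which differed from its group, so they cannot exclude a pairing. Without length, F11R came after CGN in siUSP9X. JAM2, TJP3 and CGNL1 had at most 72 counts per library, which limits their precision.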
